A study of Mus musculus with 8 samples.

Results

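The microRNAs (miRNAs) numbered miR-297, miR-466, miR-467 and miR-669 were examined in mouse liver under a methionine- and choline-deficient (MCD) diet and under a normal diet. Every mouse probe whose name carries one of these 4 numbers was taken, with any letter and either arm, and a probe with several names was taken if any name matched. This gave 72 of the 1135 miRNA probes on the array, 5 for miR-297, 27 for miR-466, 13 for miR-467 and 27 for miR-669. Together they carried 81 names, because 7 probes had more than 1 name. The probe shared by miR-466m-5p and miR-669m-5p was counted under miR-466 only. The data consisted of 8 one-colour oligonucleotide arrays of liver total RNA, 4 from the MCD group and 4 from the control group. According to the methods the animals were male C57BL/6N mice, 8 weeks old when obtained, and neither group received a drug. The labels give 23 weeks on the diet for both groups, while the methods state a shorter time. Together with the age of 8 weeks, the time in the methods comes to 23 weeks. The label may therefore hold the age at the end and not the time on the diet, which was not settled. The labels number the livers as separate samples without naming the mice, and p-values therefore measure the spread between these samples. The MCD diet is a model of steatohepatitis in which the feed lacks these nutrients, and the array samples hold whole liver with all of its cell types.

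A miRNA is cut from a hairpin precursor, and either arm of the hairpin, named 5p or 3p, can give a mature strand. In older names a star marks the arm that was thought to be the minor product, and a name without arm or star leaves the arm unstated. The seed, bases 2 to 8, is the part of the strand that mainly selects target messenger RNAs. Most miR-297, miR-466, miR-467 and miR-669 genes lie in tandem copies inside an intron of Sfmbt2, a Polycomb group gene that is imprinted and active in the placenta. The cluster is found in rodents and its products resemble simple repeats, so that many members differ from each other at few bases.

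Of 81 hairpin genes with these numbers in the RefSeq annotation of GRCm38.p6, 71 lay within the span of Sfmbt2 on chromosome 2, in a stretch of 51.6 kb, and 10 lay on other chromosomes. By their names, 56 probes were placed only in the Sfmbt2 cluster, 9 only elsewhere and 5 at both. For miR-466a-5p and miR-297a-5* no hairpin gene was matched by name, and the gene Mir466 in the cluster was matched to no probe. The probe shared by miR-466a-3p and miR-466e-3p was matched through miR-466e alone. A single hairpin gene was matched by 53 probes, whereas the probe shared by miR-669a-5p and miR-669p was matched by 14. A RefSeq mature sequence was at hand for 8 members, all of them encoded outside the cluster. They are shown in 2 sets to make the repeat-like composition visible, with the seed in capitals and written 5′ to 3′. The first set is rich in A and C.
miR-467f: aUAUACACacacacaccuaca
miR-466i-3p: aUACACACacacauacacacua
miR-467g: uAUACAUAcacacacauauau
miR-466q: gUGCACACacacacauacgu
The second set is rich in U and G.
miR-669n: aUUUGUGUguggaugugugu
miR-466j: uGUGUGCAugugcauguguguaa
miR-466k: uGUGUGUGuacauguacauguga
miR-467h: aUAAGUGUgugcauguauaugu

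The A and C share was 85.7% in miR-467f, 86.4% in miR-466i-3p, 71.4% in miR-467g and 70% in miR-466q. The U and G share was 90% in miR-669n, 73.9% in miR-466j, 69.6% in miR-466k and 68.2% in miR-467h. All 4 sequences of the first set held CACACAC or ACACACA and all 4 of the second held GUGUGUG or UGUGUGU, searched on the mature strand with overlapping matches counted once. Among the other 1671 mouse mature sequences the CA repeat occurred in 0.12% and the UG repeat in 0.54%. Each of the 8 had a seed of its own. The closest pairs were miR-467f with miR-466i-3p and miR-467g with miR-467f, both 5 edits apart (a base changed, gained or lost). These sequences thus hold no near-identical pair.
In GRCm38.p6, miR-467f lies on the minus strand at chr11:69635419-69635439 within the span of the coding gene Fxr2, and miR-467g on the minus strand at chr5:34732872-34732892 within Grk4. On the plus strand, miR-466i-3p lies at chr13:17747552-17747573 within the span of Cdk13, miR-466q at chr3:28419988-28420007 within Tnik and miR-669n at chr3:115979905-115979924 within Slc30a7. The other 3 lie on the plus strand outside the span of any coding gene, miR-466j at chr10:60960802-60960824, miR-466k at chr3:85467396-85467418 and miR-467h at chr9:115381898-115381919.

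The tissue label was checked with miR-122, the dominant miRNA of hepatocytes. Its spots read 18846, 18120, 18382 and 14535 units on MCD arrays 1 to 4, against 40551, 39849, 36622 and 30938 units on control arrays 1 to 4, so it was strongly present in both groups. The means were 17471 units in MCD and 36990 units in control. After normalization miR-122 was lower in MCD by 0.83 ± 0.13 on the log2 scale. Quantile normalization sets values by rank, and all 4 control arrays took the same value, 14.98. The size and error of this change therefore partly reflect ranks. With miR-122 included, 4 of 4 hepatocyte markers were lower in MCD and 4 of 5 mesenchymal and 3 of 5 leukocyte markers were higher, while 1 of 2 endothelial markers was higher and none of 3 red blood cell markers passed the test. The log2 of the mean signal of the hepatocyte list was 12.3 to 12.7 in MCD and 13.3 to 13.7 in control, and that of the mesenchymal list was 9.23 to 10.2 in MCD and 8.74 to 9.04 in control. All 4 hepatocyte, 4 of the 5 mesenchymal and both endothelial markers lay above the negative control limit on every array. Only 1 of the 5 leukocyte and 1 of the 3 red blood cell markers did. In whole liver, fewer cells of a type and less RNA per cell cannot be told apart. The local background around the spots was 132.5 ± 7.14 units in MCD and 153 ± 6.16 units in control (SD, n = 4 each), with no overlap (exact permutation test, two-sided p = 0.0286, the smallest the design allows). It was the smallest of several, since the same exact test on other array measures, such as the mean of the empty spots, gave p = 0.0571 to 0.771. None of these p-values was adjusted. The scanner position also separated the groups. The smallest spot coordinate of an array on the long axis was 35140 to 35250 in MCD and 3570 to 3690 in control. Position and diet therefore cannot be told apart. The part of the markers and of the local background in the members' values was not tested.

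Most members gave signals close to those of spots without a matching probe. Detection was read against a pair of limits on each array. The blank limit was the mean plus 2 SD of 1818 empty spots, and the negative control limit was the mean plus 2 SD of 24 negative control spots. The blank limit was 233 to 248 units in MCD and 240 to 261 units in control, while the negative control limit was 250 to 289 units in MCD and 286 to 293 units in control. The median member spot was 240 to 263 units in MCD and 254 to 268 units in control, which was below the negative control limit on every array. The brightest member spot was 353 units in MCD and 371 units in control.

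Of the 72 members, 51, 57, 66 and 65 exceeded the blank limit on MCD arrays 1 to 4, against 61, 23, 69 and 61 on control arrays 1 to 4. The ranges overlapped, and control array 2, with the highest blank limit, had by far the fewest. The negative control limit was exceeded by 20, 9, 9 and 5 members on the MCD arrays, against 12, 4, 7 and 5 on the control arrays. MCD array 1, whose negative control limit was the lowest of the 8, had the most. As a share, 6.94% to 27.8% of members passed this limit in MCD and 5.56% to 16.7% in control. The same limit was passed by 19.7% to 36.7% of the other mouse probes in MCD and 18.9% to 25.1% in control. For probes to viral miRNAs, which have no target in uninfected mice, it was 7.69% to 20.5% in either group.

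**Figure D1:**
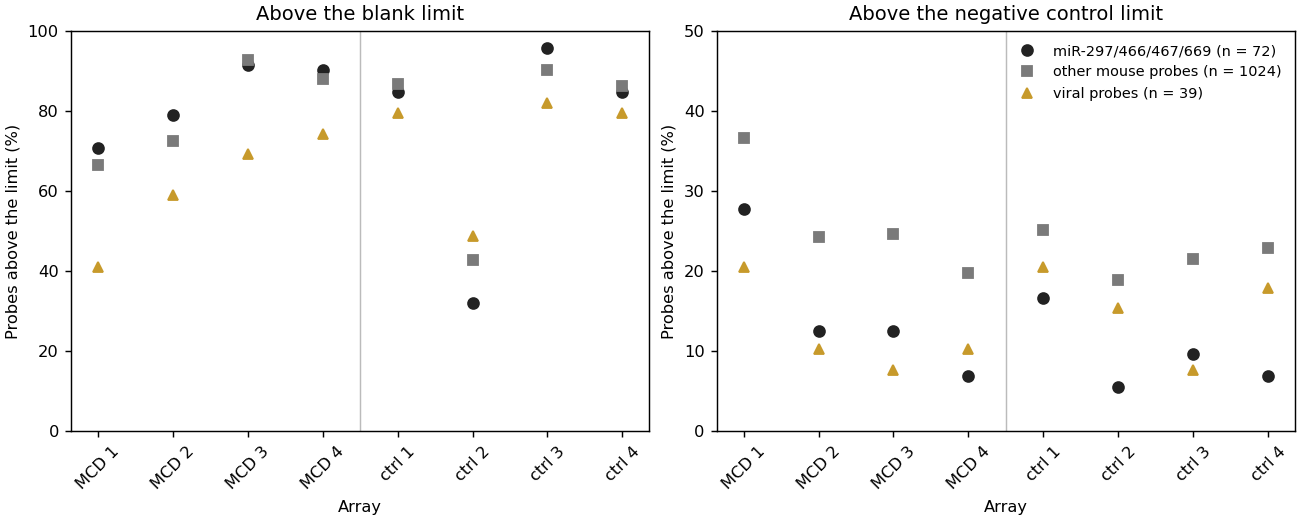
Share of probes (%) above the blank limit (left) and above the negative control limit (right) on each array, MCD arrays to the left of control arrays, for the 72 members, 1024 other mouse probes and 39 viral probes. On the right the members lie below the other mouse probes on every array, at 5.56% to 27.8%, above the viral probes on 4 arrays and below them on 4.

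Of the members, 15 (20.8%) were above the blank limit on all 8 arrays, compared with 29.0% of other mouse probes. On 4 arrays or more, 5 members (6.94%) exceeded the negative control limit, compared with 21.8% of other mouse probes and 10.3% of viral probes. These 5 were miR-466i-5p, miR-466h-3p, miR-669c*, miR-467a* and miR-669p*, and miR-466i-5p was the only one above it on all 8 arrays. No array took the spot over this limit for 38 members (52.8%), a share like the 52.2% of other mouse probes. Whether the dim spots reflect the member's own miRNA was not tested. Each member had 1 spot on an array, so the precision rests on the number of arrays.

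In the comparison of the diets, 1 member was lower in MCD and none was higher. Of the 72 members, 70 were above the blank limit on at least 4 arrays and were tested with limma together with all other such probes, 1076 in total. Over all tested probes, 5.76% were called higher in MCD and 4.46% were called lower (limma, adjusted p under 0.05). The 1 call among members, miR-466i-5p, was 1 of 5 brighter members, and in the corresponding set of all probes, those that passed the negative control limit on 4 arrays or more, 39.2% were called. Among the other 65 tested members there was no call, and among all tested probes of that dimmer kind 2.25% were called. At an unadjusted p under 0.05, 5 members were higher in MCD and 5 were lower, where 12.5% of all tested probes were higher and 9.11% lower. For the 65 dimmer members the unadjusted count was 7, or 10.8%, close to the 12.1% over all dimmer probes.

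The groups did not overlap on the normalized scale for 7 members. In 4 (miR-467b, miR-467g, miR-467c and the probe of miR-669a-5p and miR-669p) all MCD arrays were above all control arrays, as were 8.83% of all tested probes. In 3 (miR-466i-5p, miR-466l-5p and miR-669c*) all MCD arrays were below all control arrays, as were 6.23% of all tested probes. The members that were separated thus amounted to 10% of those tested, compared with 15.1% of all tested probes. The median change of the 70 members was 0.02 (log2, MCD minus control), with quartiles at -0.08 and 0.12 and extremes at -0.38 and 0.35. It was -0.01 over all tested probes. A positive change was found for 39 members and a negative one for 31. When the arrays were scaled to the spike controls, which moved the median of all probes to -0.24, the median of the members was -0.22, so that relative to all probes they lay as before.

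The 2 members below the filter were miR-466k and miR-467e. The spot of miR-466k read 208, 225, 253 and 240 units in MCD and 254, 235, 229 and 271 units in control. That of miR-467e read 234, 230, 230 and 224 units in MCD and 247, 248, 252 and 251 units in control. Both were above the blank limit on 1 MCD array and 2 control arrays, and neither exceeded the negative control limit on any.

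miR-466i-5p is the 5p product of a hairpin on chromosome 13, outside the Sfmbt2 cluster, whose other arm gives the miR-466i-3p printed above. Its spot read 319, 304, 320 and 308 units on MCD arrays 1 to 4, against 371, 327, 351 and 358 units on control arrays 1 to 4. All MCD spots were below all control spots. The means were 313 ± 7.97 units in MCD and 352 ± 18.5 units in control (SD, n = 4 each). After normalization the change was -0.35 ± 0.10 on the log2 scale (SE, limma adjusted p = 0.0379), or 1.27-fold lower in MCD. The direction was the same in 24 of 24 alternative settings, with changes from -0.61 to -0.20, but the call held in 7 of them. Leaving out control array 2 lowered the adjusted p to 0.0169, whereas leaving out any other single array raised it to between 0.061 and 0.103.

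The other arm of this hairpin had a value of the opposite sign. The spot of miR-466i-3p read 262, 288, 291 and 285 units in MCD, against 271, 280, 269 and 253 units in control. The groups overlapped, and the change was 0.26 ± 0.11 (adjusted p = 0.165). It was above the negative control limit on 3 MCD arrays and on no control array. The difference between the changes of the 2 arms, 5p minus 3p, was -0.61 on the log2 scale and was not tested.

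**Figure D2:**
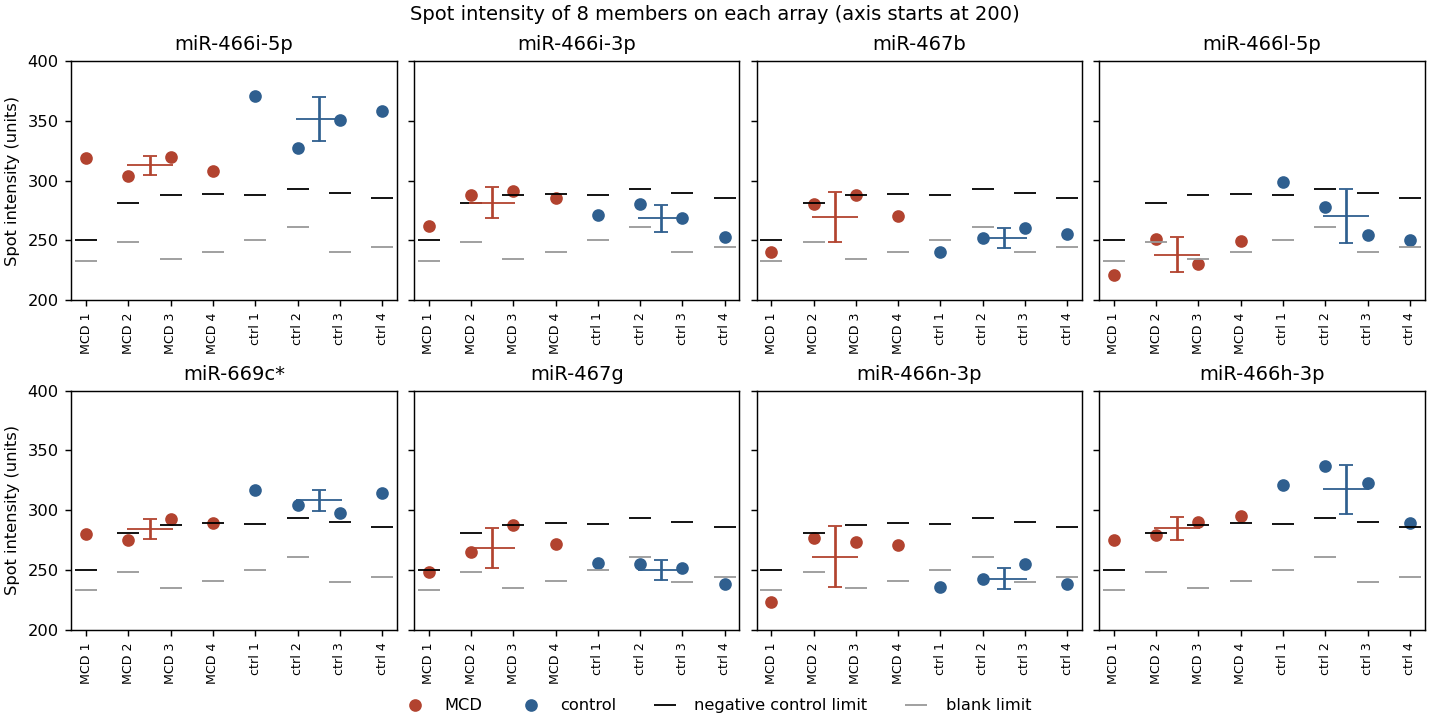
Spot intensity (units, linear axis that does not start at 0) of 8 members on each array, MCD to the left of control, with the group mean and SD (n = 4) as crossed bars. Black dashes mark the negative control limit and grey dashes the blank limit of the array. miR-466i-5p stays above the black dash on all 8 arrays, at 304 to 320 units in MCD and 327 to 371 units in control. miR-466h-3p and miR-669c* lie above it on 3 MCD and 4 control arrays each, whereas the rest lie around 1 or both limits.

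The miR-466 probes split evenly in sign. Of 26 tested, 13 changes were positive and 13 negative, with a median of -0.0008. miR-466l-5p read 221, 251, 230 and 249 units in MCD, against 299, 278, 254 and 250 units in control. Its highest MCD spot exceeded the lowest control spot, and on the normalized scale the groups were apart, with a change of -0.38 ± 0.12 (adjusted p = 0.0609). miR-466h-3p read 275, 279, 290 and 295 units in MCD, against 321, 337, 323 and 289 units in control, a change of -0.28 ± 0.11 (adjusted p = 0.148). Control array 4 lay among the MCD arrays for this probe. In the opposite direction, miR-466n-3p read 223, 277, 273 and 271 units in MCD, against 236, 242, 255 and 238 units in control, a change of 0.33 ± 0.12 (adjusted p = 0.137). The spot of MCD array 1 was below every control spot, its normalized value lay within the range of the controls, and without this array the probe was called higher (adjusted p = 0.0423). miR-466m-3p (-0.19 ± 0.15, adjusted p = 0.520) and miR-466q (-0.16 ± 0.14, adjusted p = 0.580) had changes little larger than their errors. Without control array 3 that of miR-466m-3p was -0.05, and without control array 4 it was -0.34. For miR-466q it was -0.06 without MCD array 1 and -0.30 without MCD array 4.

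The 3 miR-466f probes belong to the same 4 hairpin genes, 3 in the cluster and 1 on chromosome 13, and were read by separate spots. miR-466f-5p read 250, 264, 281 and 291 units in MCD and 310, 291, 275 and 274 units in control (change -0.04 ± 0.11, adjusted p = 0.895). The probe named miR-466f without an arm read 237, 277, 282 and 287 units in MCD and 285, 282, 255 and 270 units in control (0.03 ± 0.11, adjusted p = 0.929). For miR-466f-3p the spots were 268, 275, 277 and 281 units in MCD and 309, 254, 282 and 293 units in control (-0.08 ± 0.11, adjusted p = 0.738). Within each of the 3, the groups overlapped and the change was smaller than its error.

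Among the miR-467 probes, 8 of 12 tested changes were positive, and the median was 0.07. miR-467b, encoded in the cluster, read 240, 280, 288 and 270 units in MCD, against 240, 252, 260 and 255 units in control. MCD array 1 equalled the lowest control spot before normalization, and after it all MCD arrays were higher, with a change of 0.35 ± 0.11 (adjusted p = 0.0532). This passed the threshold in 5 of 22 alternatives and kept its direction in 22. miR-467g, from chromosome 5, read 248, 265, 288 and 272 units in MCD, against 256, 255, 252 and 238 units in control, a change of 0.26 ± 0.09 (adjusted p = 0.119). Its groups were likewise apart only after normalization. The spots of both lay above the negative control limit on 1 MCD array and on no control array. The brighter miR-467a* read 280, 295, 292 and 252 units in MCD and 289, 256, 264 and 278 units in control, with overlap and a change of 0.18 ± 0.13 (adjusted p = 0.489). miR-467d* (0.16 ± 0.11, adjusted p = 0.471), miR-467f (-0.10 ± 0.14, adjusted p = 0.738) and miR-467h (-0.10 ± 0.11, adjusted p = 0.682) did not pass the test either.

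For miR-669, without the probe shared with miR-466m-5p, 16 of 27 changes were positive, and the median was 0.01. miR-669c* read 280, 275, 293 and 289 units in MCD, against 317, 304, 298 and 314 units in control. All MCD spots were below all control spots, and the change was -0.25 ± 0.09 (adjusted p = 0.109). It passed the threshold in 3 of 24 alternatives and kept its direction in 24. miR-669k* read 218, 265, 221 and 243 units in MCD, against 275, 257, 264 and 261 units in control, with MCD array 2 among the controls and a change of -0.26 ± 0.11 (adjusted p = 0.184). miR-669m-3p read 240, 262, 287 and 273 units in MCD, against 260, 245, 270 and 236 units in control, a change of 0.25 ± 0.11 (adjusted p = 0.206) with overlap. miR-669p*, above the negative control limit on 3 MCD arrays and 1 control array, read 272, 353, 263 and 303 units in MCD and 282, 293, 294 and 266 units in control. Its spread in MCD was wider than the difference between the groups (0.21 ± 0.17, adjusted p = 0.552). miR-669n, from chromosome 3, had a change of -0.13 ± 0.12 (adjusted p = 0.602).

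The 5 miR-297 probes had a median change of -0.01, with 2 positive and 3 negative. Their median SE was 0.15, compared with 0.11 over all members. miR-297b-5p read 276, 264, 253 and 240 units in MCD and 261, 223, 264 and 233 units in control, a change of 0.27 ± 0.16 (adjusted p = 0.397) that was 0.14 without MCD array 1 and 0.17 without control array 2. The probe shared by miR-297b-3p, miR-297a* and miR-297c* read 255, 250, 290 and 249 units in MCD and 274, 275, 214 and 254 units in control, a change of 0.20 ± 0.19 (adjusted p = 0.602) that turned negative in 3 of 21 alternatives. miR-297a-5* read 227, 252, 245 and 253 units in MCD and 269, 247, 271 and 270 units in control (-0.14 ± 0.09, adjusted p = 0.418). The groups overlapped for all of the miR-297 probes, and none was above the blank limit on all 8 arrays.

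**Figure D3:**
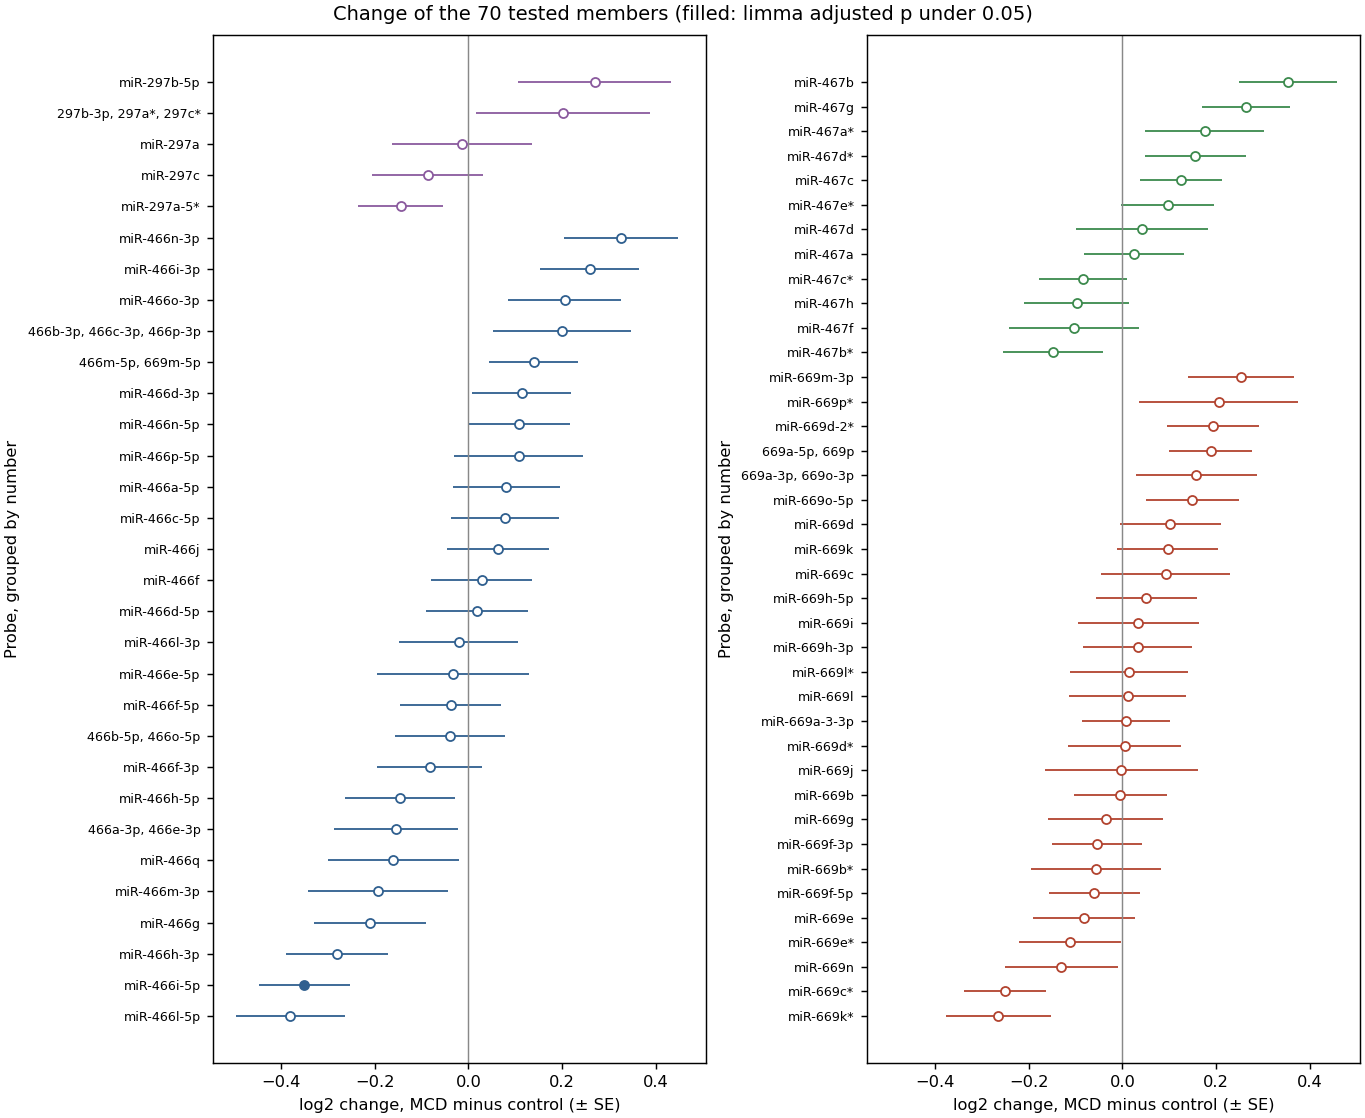
Change in log2 signal, MCD minus control, with its SE (horizontal bars) for the 70 tested members, ordered by size within miR-297, miR-466, miR-467 and miR-669. The values run from -0.38 to 0.35 around 0, and the single filled point is miR-466i-5p at -0.35, the only one with an adjusted p under 0.05.

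By name type, the median change was 0.05 for 17 probes named 5p, 0.07 for 16 named 3p, 0.01 for 23 tested probes without arm or star and -0.03 for 14 starred ones. Both arms of a precursor name were tested for 32 names, 14 of them through a probe shared with other names. In 21 the changes of the arms had the same sign and in 11 they had opposite signs. After miR-466i, the widest gap was that of miR-467b, with 0.35 for miR-467b and -0.15 ± 0.11 for miR-467b*, a difference of 0.50. miR-669k at 0.10 and miR-669k* at -0.26 followed. At the other end, miR-669l and miR-669l* both had a change of 0.01, and miR-669f-5p and miR-669f-3p had changes of -0.06 and -0.05. Differences between arms were not tested, and each of these values has an SE of 0.10 to 0.13.

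Where a probe has several names or many gene copies, its signal cannot be assigned to a single precursor. The 7 probes with several names had a median change of 0.16, 5 of them positive, and none was called. The 5 probes matched by at least 10 hairpin genes were all positive, with a median of 0.18, a least change of 0.03 and none called, while the 51 tested probes with 1 hairpin gene had a median of -0.002. This grouping was made after the values were seen and was not tested. The one with the most hairpin genes, shared by miR-669a-5p and miR-669p, read 240, 271, 268 and 265 units in MCD, against 268, 254, 250 and 252 units in control. MCD array 1 was the lowest of all before normalization and the groups were apart after it, with a change of 0.19 ± 0.09 (adjusted p = 0.239). For the other arm of miR-669a, the probe shared by miR-669a-3p and miR-669o-3p had a change of 0.16 ± 0.13 (adjusted p = 0.550). The probe of miR-466b-3p, miR-466c-3p and miR-466p-3p, with 11 hairpin genes, had a change of 0.20 ± 0.15 (adjusted p = 0.498). On the 5p arm these 3 names are read by separate probes. The probe of miR-466b-5p and miR-466o-5p, with 9 hairpin genes, had a change of -0.04 ± 0.12 (adjusted p = 0.906). miR-466c-5p had one of 0.08 ± 0.12 (adjusted p = 0.756) and miR-466p-5p one of 0.11 ± 0.14 (adjusted p = 0.719).

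By location, the 55 tested probes placed only in the Sfmbt2 cluster had a median change of 0.03, with 33 positive and none called. The 5 probes placed both inside and outside had a median of -0.01, and the 8 tested probes placed only elsewhere had one of -0.10, with miR-466i-5p as the 1 call. Along the 51.6 kb of the cluster both signs occurred, and the 2 arms of 1 hairpin could lie far apart, as miR-467b and miR-467b* did.

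**Figure D4:**
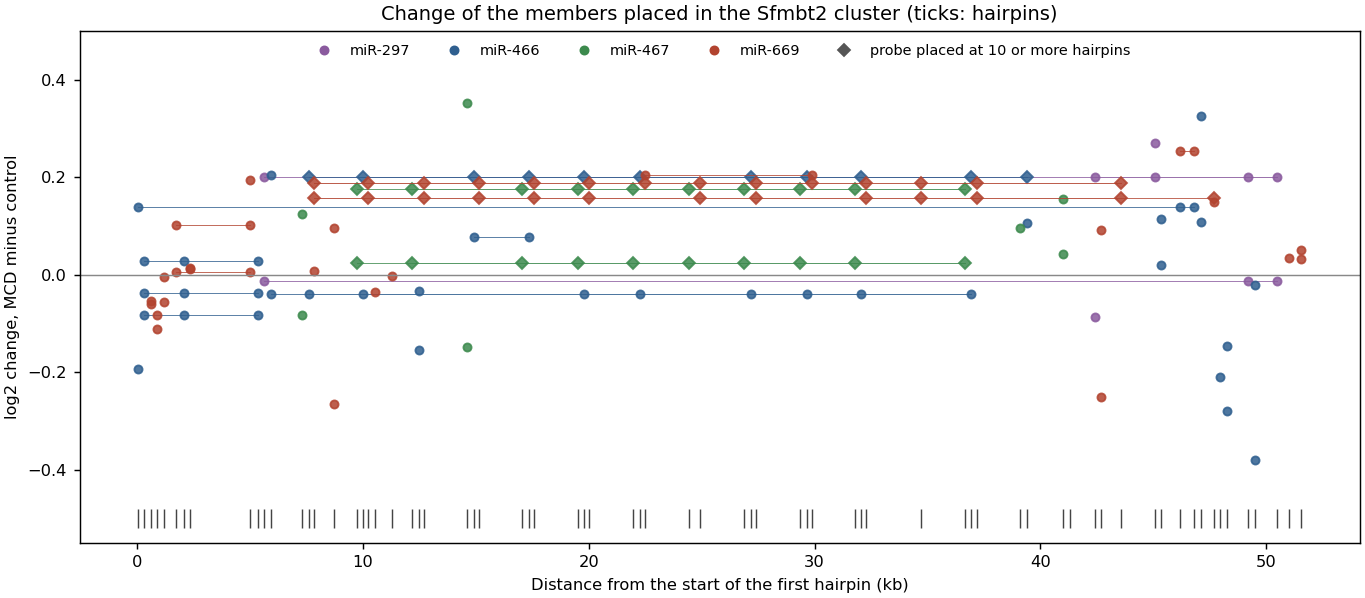
Change in log2 signal, MCD minus control, of the members placed in the Sfmbt2 cluster against the distance from the first hairpin (kb), where ticks mark the hairpin genes and a thin line joins the positions of a probe that matches several. The diamonds, the 5 probes with at least 10 hairpin genes, all lie above 0, at 0.03 to 0.20, and none of the points was called.

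The printed sequences allowed a comparison of composition. Of the A and C rich set, miR-467g and miR-466i-3p had positive changes of 0.26 each, and miR-466q and miR-467f had negative ones of -0.16 and -0.10. Thus miR-467f and miR-466i-3p, 5 edits apart, differed by 0.36 in their changes, and miR-467g and miR-467f, also 5 edits apart, differed by 0.37. Both pairs hold miR-467f, whose change was -0.22 without control array 3, so they are not separate observations. Over 19 tested pairs further apart the median difference was 0.19, with values from 0.005 to 0.42. A relation between sequence distance and difference was not tested. Of the U and G rich set, miR-466j read 251, 265, 265 and 283 units in MCD and 286, 273, 257 and 247 units in control (0.06 ± 0.11, adjusted p = 0.798), and miR-669n and miR-467h are given above. The 3 tested changes of this set ran from -0.13 to 0.06 and none passed the test.

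The search for the same repeats outside these families reached only part of the array, since 324 probe names, members included, matched a RefSeq mature sequence. It found miR-574-5p, miR-574-3p, miR-1187, miR-3082-5p and miR-3097-5p. None was called, and their median change was -0.13, or -0.04 without control array 1. miR-574-5p read 270, 310, 299 and 291 units in MCD, against 335, 305, 307 and 317 units in control, above the negative control limit on all 8 arrays, with a change of -0.16 ± 0.09 (adjusted p = 0.360). The median change of the members was 0.02, with changes from -0.38 to 0.35. The 30 tested viral probes had a median of -0.12 and changes from -0.54 to 0.15, with 2 called lower and none higher. Why the viral probes, which should find no target in these livers, lay mostly below 0 was not tested.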

How the data were processed

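Liver total RNA had been labelled and hybridised to a mouse miRNA Oligo chip by the authors, 1 array per sample. Groups and replicate numbers were taken from the titles in the labels. The deposited scanner files hold the median pixel intensity of each spot and of its local background, uncorrected and on a linear scale. The labels name the dye Hy5, while the columns carry the wavelength of the other dye, and which dye was read is not settled. Each array was read in the same columns as the others. A table of processed intensities, deposited by the authors as well, was found to hold the spot minus the mean of the blank spots (5% trimmed at each end), scaled to a median of 45 per array, with a largest difference of 0.0130% to 0.0255% per array. The scaling to 28S RNA that the methods describe was not seen in it. This table was used as an alternative. No sample column was left unmapped (0).

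Intensities of all 3136 spots were corrected with normexp (offset 50) in limma 3.58.1 (R 4.3.3), log2-transformed, and quantile-normalized across 1135 miRNA probes. This offset understates fold changes of dim probes. Probes above the blank mean plus 2 SD on at least 4 of 8 arrays (1076) were tested with lmFit and eBayes, two-sided, with Benjamini-Hochberg adjustment over all of them (threshold 0.05) and no block. The scripts were tested on simulated data. No arrays were identical (lowest correlation between arrays 0.911). The number of arrays limits the precision. The probe sequences were not used here.

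Members and lists were chosen with earlier results of these data known. The members named are those past the threshold, the 3 with the smallest p of each number, the 6 with the highest mean signal, and those of the 4 closest sequence pairs. Further members were named after their values were seen, as the brighter probes, the untested ones and examples of shared names and arms. Hairpin genes and sequences are those of RefSeq (GRCm38.p6), matched by name.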

Additional observations from a re-analysis of the deposited data

Results flagged for a closer look

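miR-467f on control array 3 stood apart from the rest of its group. Its normalized log2 signal was 6.79 there, against 7.21 to 7.29 on the other 3 control arrays, and the gap made up 0.84 of the range of the group, above the limit of Dixon's test for 4 samples. Of 48 groups examined, this was the only one, and chance alone marks about 1 in 20 groups. The spots of miR-467f read 232, 293, 283 and 253 units on the MCD arrays and 301, 285, 250 and 294 units on the control arrays.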

How the results depend on the processing

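The counts of members called higher and lower in MCD, 0 and 1 with the settings of the report, were small enough that most settings moved them. No call of a member reversed its direction. No member was called (limma, adjusted p under 0.05) with blank subtraction, an offset of 16, 75th percentile scaling, no scaling or the authors' values (0 higher and 0 lower). With global median scaling, cyclic loess or the replicate block, 1 was higher (miR-467b) and 0 lower. With spike control scaling 0 were higher and 2 lower (miR-466l-5p and miR-669k*), and with the stricter filters (negative control limit on 4 arrays, or blank limit on 8 arrays) 0 were higher and 2 lower (miR-466i-5p and miR-669c*). With the blank mean plus 3 SD as the limit, or with array weights, 1 was higher (miR-467b) and 1 lower (miR-466i-5p). The methods' t-test, with an adjustment added here, called 0 higher and 1 lower (miR-669c*). Without adjustment it called 7 higher and 5 lower, where 122 and 94 of all 1076 tested probes were called. The methods describe array p-values without error correction, so this version is nearer to them. It was added here after seeing the data and used the normalized values of this report. At a P-value under 0.05, the paper itself lists miR-466i-5p and miR-669c* as lower in MCD. It lists miR-669d-2* and the probe of miR-669a-5p and miR-669p as higher. Of the repeat-like relatives, the paper lists miR-574-5p as lower. Leaving out 1 array at a time gave 0 to 1 higher and 0 to 1 lower. Between MCD and control samples of the same replicate number, the correlations of deviations were -0.0069 to 0.0953. For different numbers they were -0.1184 to 0.0789, so whether the numbers pair the samples is not settled. In both groups arrays 1 and 2 lay lower on the long axis of the scanner than arrays 3 and 4. In the fit with the replicate block miR-466i-5p was not called, with an adjusted p of 0.0564. Over all probes, 62 were higher and 48 lower, against 34 and 93 with spike control scaling and 30 and 16 with blank subtraction. The median change of the members, 0.02, became 0.13 with blank subtraction, -0.22 with spike control scaling and -0.25 over the 5 members left by the negative control filter, and leaving out 1 array gave 0.0043 to 0.027. The median of the repeat-like relatives, -0.13, became -0.38 with blank subtraction, -0.35 with spike control scaling and -0.32 with the authors' values, while it was -0.08 without background correction and -0.18 to -0.04 with 1 array left out (nearest 0 without control array 1). The median difference of the close pairs, 0.36, became 0.19 without background correction and 1.03 with blank subtraction. On average 56.6 members per array exceeded the blank limit, 39.1 the limit at 3 SD and 8.88 the negative control limit. The cause of these shifts was not tested. A slide block was not run, since the files name no slide. Signals so near the blank spots limit what these arrays can show for most members.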
